A study of Homo sapiens with 6 samples.

Results

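The genes described here are 46 factors that build ribosomes: RNA polymerase I and its initiation factors, the proteins of small nucleolar ribonucleoproteins (snoRNPs), abundant nucleolar proteins, and the assembly factors of the small and large ribosomal subunits. They are given as a list of gene symbols, and each symbol was matched to 1 of the 60668 Ensembl gene rows in the table. They fall into 5 groups of 8 RNA polymerase I factors, 8 snoRNP proteins, 3 multifunctional nucleolar proteins, 15 small-subunit assembly factors and 12 large-subunit assembly factors. RNA-seq was performed on MiaPaCa-2, an established human pancreatic ductal adenocarcinoma cell line, after 48 h in medium with 2.5 mM glucose (low glucose, 3 libraries) or 25 mM glucose (control, 3 libraries). The series describes its replicates as independent and biological. All 6 libraries came from this 1 line, with no edited allele or drug named in the labels, and the comparison asks how the tumor cells' transcripts differ when glucose is scarce.

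Ribosomes are made in the nucleolus. RNA polymerase I, with the factors UBTF, RRN3 and the TAF1 proteins of selectivity factor 1, transcribes the ribosomal RNA precursor. snoRNPs then guide its chemical modification, with FBL as the methylase of the box C/D class and DKC1 as the pseudouridine synthase of the box H/ACA class, and assembly factors fold, cleave and export the 2 subunits. The process takes a large share of a growing cell's resources, and its genes are well-known targets of the MYC transcription factors and of growth signaling.

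The libraries held 9741183 to 10190154 reads in control cells and 10595408 to 13733477 in low glucose, and they are named control A, B and C and low glucose A, B and C in the table's order (low glucose A and B are the labels' replicates 1 and 2). Values are read counts per gene after division by the authors' size factor of each library, here called normalised counts, and log2 fold changes are low glucose minus control on the log2(value + 1) scale with the adjusted p of limma, called at an adjusted p under 0.05. KRT8, KRT18 and VIM, which mark this line, had 13896 to 107058 reads in every library, CDKN2A had none and CDH1 at most 3. Of the leukocyte, endothelial and fibroblast markers, PTPRC, CD3E and DCN were at 0, PECAM1, COL1A1 and CD14 had at most 45 reads, COL1A2 had 1940 to 2577, and CDH5 had 145 to 165 in the controls but 10 to 16 in low glucose, whose part in the results was not tested. Reads from the mitochondrial genome made up 2.47% to 3.82% of control libraries and 4.65% to 5.12% of low-glucose libraries, and their part was not tested either. The rows of nuclear ribosomal RNA genes took at most 0.00107% of reads, so ribosomal RNA itself was not measured. In bulk RNA, fewer expressing cells and less RNA per cell cannot be told apart.

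The proximal promoters of many of the 46 genes hold the same short DNA word, and 8 of them are shown for that reason. The word is CACGTG, the palindromic E-box, to which MYC with MAX and related factors are known to bind. Promoter sequences of 300 bases, from 250 before the annotated start to 50 after it, were taken from RefSeq (GRCh38.p14) and matched 40 of the 46 genes with 49 promoters. Each line gives 30 bases in the direction of the gene with the word in capitals, 6 from genes that fell in low glucose and 2 from genes that were not called.
FBL (chr19:39846356-39846385, minus strand): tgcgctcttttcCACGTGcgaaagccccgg
DDX21 (chr10:68956604-68956633, plus strand): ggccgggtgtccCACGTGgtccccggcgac
NOP14 (chr4:2963374-2963403, minus strand): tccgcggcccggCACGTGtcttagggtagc
MRTO4 (chr1:19251807-19251836, plus strand): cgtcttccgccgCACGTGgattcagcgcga
PES1 (chr22:30591880-30591909, minus strand): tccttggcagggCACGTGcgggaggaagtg
UTP20 (chr12:101280083-101280112, plus strand): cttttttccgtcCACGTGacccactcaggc
RRP9 (chr3:51941892-51941921, minus strand, not called): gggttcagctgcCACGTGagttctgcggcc
NOP10 (chr15:34343130-34343159, minus strand, not called): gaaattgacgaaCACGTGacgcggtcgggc
Counting from the start site as position 0, the word began at position -31 in DDX21, -11 in NOP10, -10 in UTP20, -5 in RRP9, 6 in FBL, 13 in PES1, 14 in MRTO4 and 15 in NOP14, so the 8 copies shown lay close to the start site. The NOP10 promoter held another copy further off, at position -170.

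CACGTG was present in promoters of 17 of the 40 matched genes, or 42.5%. Counted by promoter, it was in 34.7% of the 49, in 7.26% of all 35116 promoters of the same length and in 9.01% of those of genes tested here. The word reads the same on both strands, so 1 search covers both. It was about as frequent in the genes that fell (10 of 24 matched, 41.7%) as in those that did not (7 of 16, 43.8%), and the copies in FBL and NOP10 illustrate both outcomes. The GC box GGGCGG, searched on both strands and separately from CACGTG, was in 71.4% of the members' promoters and in 63.8% of promoters of genes tested. A match to these letters is a description of sequence and does not show that a factor was bound.

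All 46 genes passed the filter on low values, and most were less abundant in low glucose. Of the 46, 29 fell, 1 rose (POLR1D) and 16 were not called, against a background of 16.2% of the 21101 genes tested that fell, 14.7% that rose and 30.9% called in either direction. The median log2 fold change was -0.32 over the 46 genes and 0.05 over all genes tested. Because ribosome biogenesis genes are well expressed, a nearer background is the 10149 genes whose mean was 100 or more, of which 3049 fell, with a median of -0.08. The 3 control and 3 low-glucose values did not overlap for 33 of the 46 genes, against 43.9% of all genes tested and 6085 of the 10149 with a mean of 100 or more. In the 4 groups other than RNA polymerase I, 0 genes rose in limma, edgeR or DESeq2, and 0 were higher at an unadjusted p under 0.05 in any of the 3. These 4 groups are those left after setting aside the group of POLR1D, and the share of all genes higher at that unadjusted p was not counted. With quantile normalization, NOB1 of these groups was called higher in limma (adjusted p = 0.0222). When library totals were made equal instead, 3933 genes of the table rose and 2646 fell, against 3111 and 3417 with the authors' size factors, and 22 of the 46 genes were called lower.

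**Figure D1:**
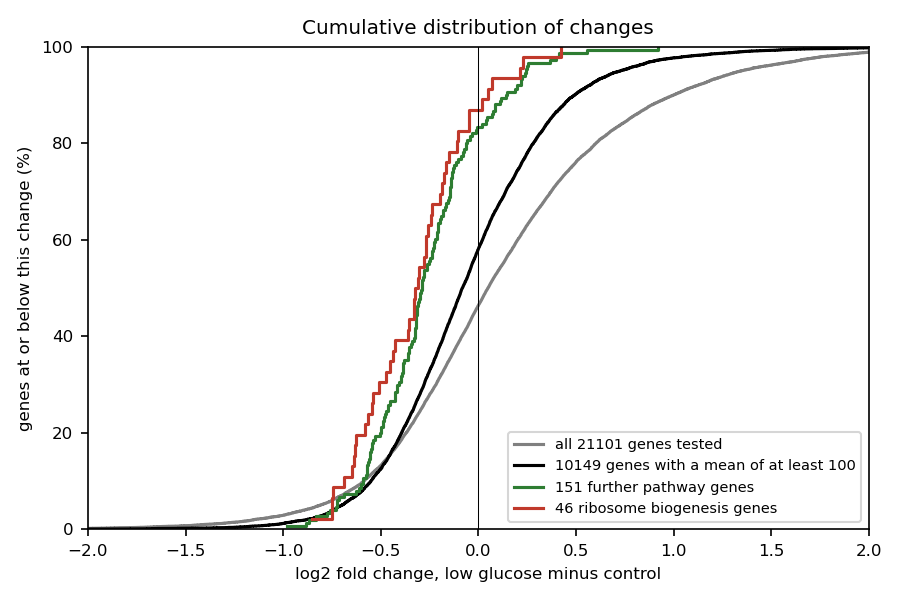
Cumulative share of genes (y axis, percent) at or below each log2 fold change of low glucose against control (x axis), for the 46 genes, the 151 further genes of the pathway, the 10149 genes whose mean was 100 or more and all 21101 genes tested. The 46 genes (red) and the 151 (green) lie to the left of both backgrounds, with medians of -0.32 and -0.29 against -0.08 and 0.05, and none of the 46 reaches -1 or 0.5.

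As a share of all reads, the 46 genes together took 1.20% to 1.25% of control libraries and 0.918% to 0.937% of low-glucose libraries. NCL and NPM1 alone gave 43.5% to 44.1% of these reads in control cells and 41.4% in low glucose. Per kilobase of the canonical transcript, a scale on which genes can be compared, NPM1 was the most abundant in control cells with 22170 normalised counts, followed by NCL with 7610, FBL with 2503 and NHP2 with 2485. The lowest were NOP2 with 9.94 and PPAN with 86.0. Their exons share 2550 and 1374 bases with a second annotated gene on the same strand. How reads that match both genes were counted is not given, so these 2 values may understate abundance.

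**Figure D2:**
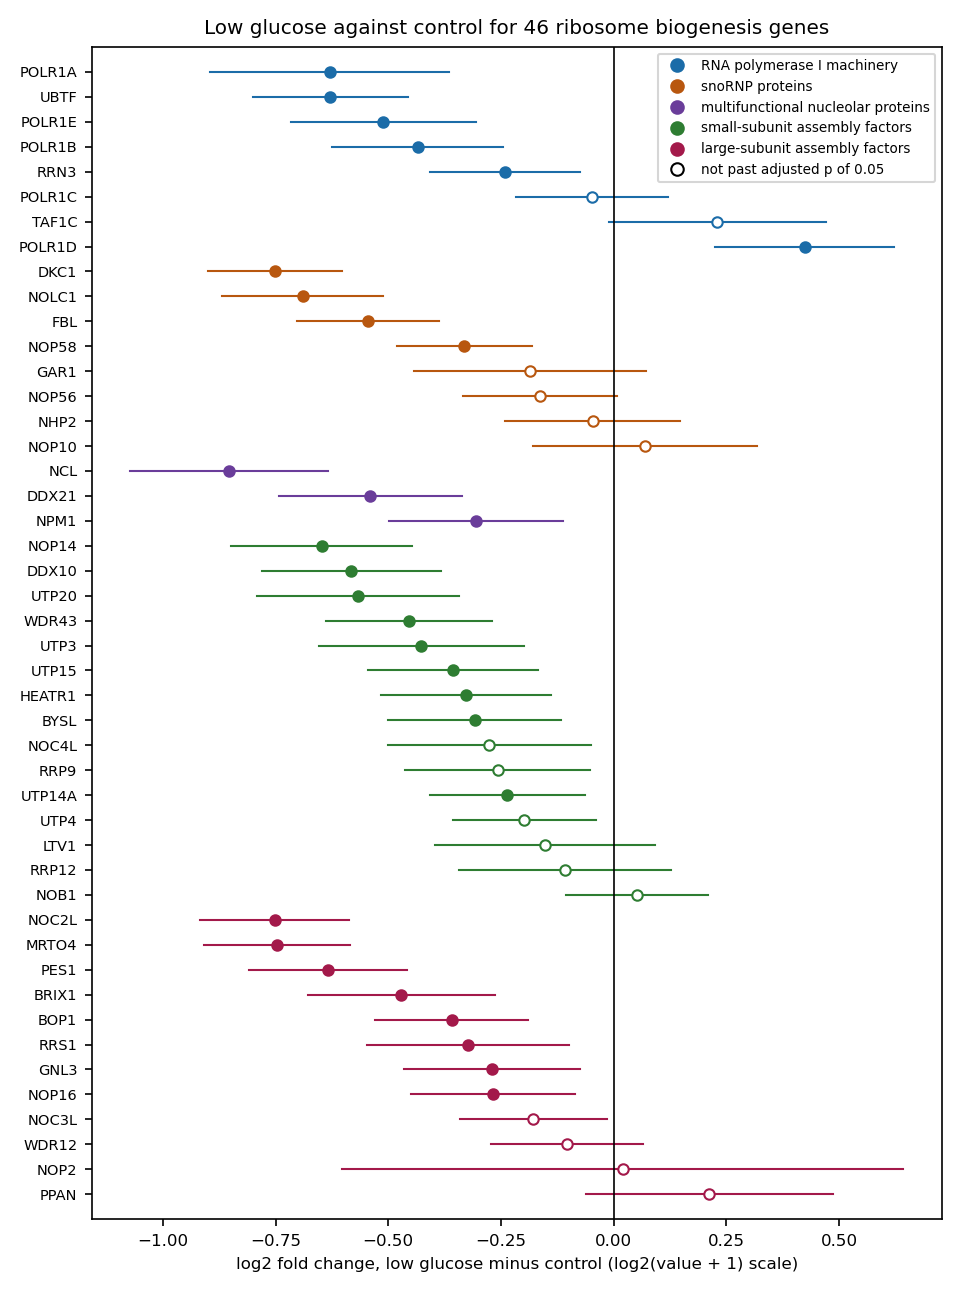
Log2 fold change of each of the 46 genes in low glucose against control (x axis), by group, with the 95% confidence interval of the limma fit. Filled points passed an adjusted p of 0.05. In every group the points spread from clear falls to values around 0 except among the 3 nucleolar proteins, which all fell, and POLR1D is the only filled point to the right of 0.

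Among the RNA polymerase I machinery, 5 of 8 genes fell, 1 rose and 2 were not called, with a median log2 fold change of -0.34. POLR1A (chr2:86020216-86106155), which encodes the largest catalytic subunit, had 2212, 2854 and 1806 normalised counts in control A, B and C and 1378, 1494 and 1493 in low glucose A, B and C. The control values were widely spread, yet the lowest of them was above all 3 low-glucose values, and the log2 fold change was -0.63 ± 0.124 (SE, adjusted p = 0.00142). UBTF (chr17:44205033-44221626), the architectural factor that keeps ribosomal genes open, had 1832, 2109 and 1817 in control and 1252, 1270 and 1193 in low glucose. The 2 sets were well apart and tight, with a log2 fold change of -0.63 ± 0.0804 (adjusted p = 4.29e-05). POLR1E, a subunit of the polymerase's initiation and elongation module, had 620, 750 and 677 in control and 462, 451 and 521 in low glucose. Its groups did not overlap and it fell by 0.51 on the log2 scale (SE 0.0960, adjusted p = 0.00100). POLR1B, the second-largest subunit, fell by 0.44 (adjusted p = 0.00181) and RRN3, the initiation factor that links the polymerase to growth signals, fell by 0.24 (adjusted p = 0.0294). RRN3P1 and RRN3P3, pseudogene copies of RRN3, held 7.12% to 16.4% of the combined reads of RRN3 and its pseudogenes, so its value is uncertain to that extent.

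POLR1D (chr13:27620742-27744237), an assembly subunit shared by RNA polymerases I and III, went the other way. It had 569, 503 and 633 normalised counts in control and 758, 772 and 749 in low glucose. The lowest low-glucose value was above the highest control value, with a log2 fold change of 0.42 ± 0.0928 (adjusted p = 0.00301). POLR1C, its partner in both polymerases, had 957, 930 and 993 in control and 907, 889 and 990 in low glucose, and the groups overlapped. The log2 fold change of POLR1C was -0.05 (95% confidence interval -0.22 to 0.12, adjusted p = 0.687), and the sources used here do not state whether reads were counted by strand, which matters because its exons share 348 bases with XPO5 on the other strand (log2 fold change -0.38). TAF1C, a subunit of selectivity factor 1, had 758, 658 and 958 in control and 923, 882 and 946 in low glucose. Control C lay above all low-glucose values and control A and B below them, and the interval of the TAF1C change ran from -0.01 to 0.47 (adjusted p = 0.139). Without control C, TAF1C had a log2 fold change of 0.38 with an adjusted p of 0.00226.

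Of the 8 snoRNP proteins, 4 fell and 4 were not called, with a median of -0.26. DKC1 (chrX:154762742-154777689), the pseudouridine synthase of the box H/ACA particle, had 5338, 5275 and 5291 normalised counts in control and 3144, 3177 and 3120 in low glucose. Replicates differed by little and the groups were far apart, so that a log2 fold change of -0.75 ± 0.0694 had the lowest adjusted p of the 46 genes (2.41e-06). NOLC1, a chaperone of snoRNPs in the nucleolus and Cajal bodies, had 6287, 7074 and 5818 in control and 3821, 4025 and 4008 in low glucose. The sets were well separated, and NOLC1 fell by 0.69 on the log2 scale (SE 0.0832, adjusted p = 2.52e-05). FBL (chr19:39834458-39846379), the box C/D methylase whose promoter window is given above, had 2787, 2742 and 2918 in control and 1974, 1999 and 1817 in low glucose. Both sets were narrow, and FBL fell by 0.55 (SE 0.0739, adjusted p = 7.08e-05).

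The remaining core proteins of the 2 particles changed less. NOP58, one of the paired scaffold proteins of the box C/D particle, fell by 0.33 on the log2 scale (adjusted p = 0.00233), while its counterpart NOP56 had a log2 fold change of -0.16 (adjusted p = 0.137). NOP58 shares 274 exon bases with a noncoding gene on the other strand that has 30.7% of its level and a log2 fold change of -0.35. In the box H/ACA particle, GAR1 had a log2 fold change of -0.19 (adjusted p = 0.271). NHP2 had 1863, 1755 and 2197 normalised counts in control and 1920, 1963 and 1731 in low glucose, so the 2 sets were mixed and the interval of its change was -0.24 to 0.15. NOP10, the smallest core protein, had 481, 378 and 537 in control and 502, 492 and 457 in low glucose, again mixed, with an interval of -0.18 to 0.32. NHP2 shares 414 exon bases with RMND5B on the other strand, which has 88.3% of its level. Without control B, NOP56 and GAR1 had log2 fold changes of -0.23 and -0.32 with adjusted p of 0.00240 and 0.00953.

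The 3 multifunctional nucleolar proteins all fell, with a median of -0.54. NCL (chr2:231453531-231483641) encodes nucleolin, one of the most abundant nucleolar proteins, which acts in ribosomal RNA transcription and processing. It had 29344, 34214 and 26022 normalised counts in control and 16138, 16508 and 16644 in low glucose. The fall in mean was 45.0%, and its log2 fold change of -0.85 ± 0.102 was the furthest from 0 of the 46 (adjusted p = 2.40e-05). DDX21, an RNA helicase of ribosomal RNA transcription and processing, had 7827, 9022 and 6859 in control and 5309, 5241 and 5660 in low glucose. Its groups were also apart, with a log2 fold change of -0.54 ± 0.0950 (adjusted p = 0.000597). NPM1, nucleophosmin, a histone and ribosome chaperone, had 30014, 27029 and 30749 in control and 23469, 23731 and 23729 in low glucose. The low-glucose values lay below all controls, and NPM1 fell by 0.31 (SE 0.0900, adjusted p = 0.0183). NPM1 pseudogenes took 2.85% to 3.74% of the combined reads.

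**Figure D3:**
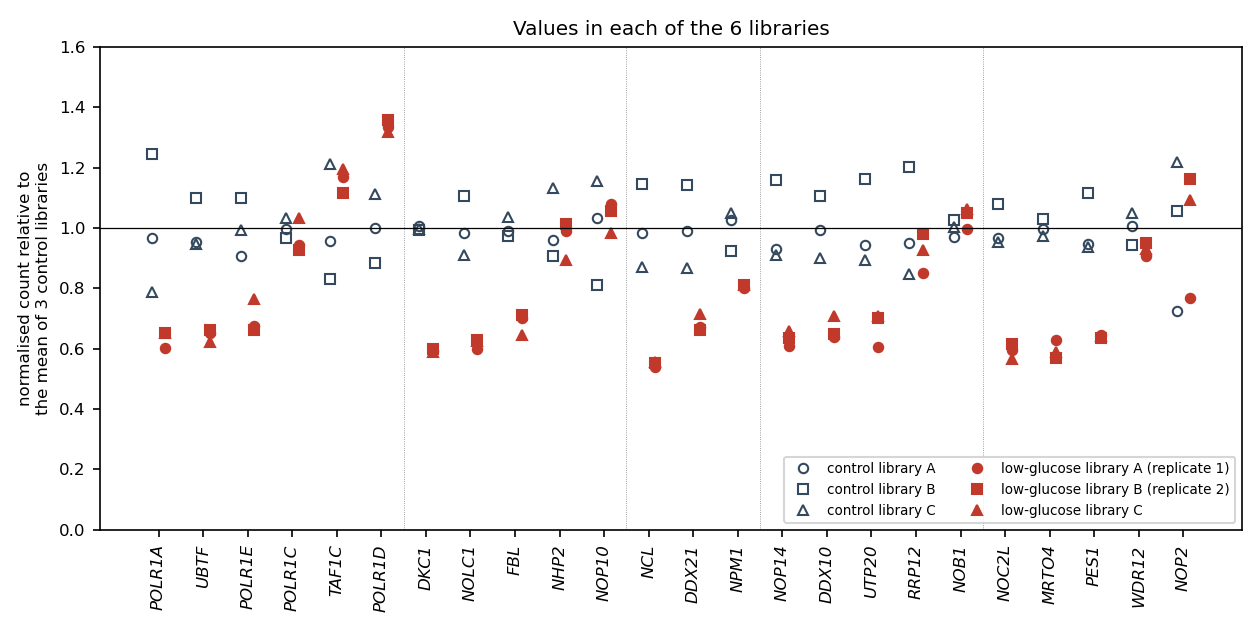
Normalised counts of 24 of the 46 genes in each of the 6 libraries (y axis, relative to the mean of the 3 control libraries, which is 1), with the 5 groups separated by dotted lines. Open symbols are control and filled symbols low-glucose libraries. Control B (open squares) is the highest or the lowest control for most genes shown, while low-glucose libraries lie close together, and POLR1C, TAF1C, NHP2, NOP10, RRP12, NOB1, WDR12 and NOP2 have filled symbols among the open ones.

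Of the 15 small-subunit assembly factors, 9 fell, none rose and 6 were not called, with a median of -0.31. NOP14, part of the small-subunit processome that assembles on the nascent precursor, had 1466, 1831 and 1437 normalised counts in control and 963, 1002 and 1039 in low glucose. NOP14 fell by 0.65 (SE 0.0940, adjusted p = 0.000125), and its antisense gene NOP14-AS1, with which it shares 737 exon bases, had a log2 fold change of -0.39 and 62.0% of its level. DDX10, an RNA helicase, had 800, 892 and 725 in control and 515, 524 and 572 in low glucose, and fell by 0.58 (SE 0.0931, adjusted p = 0.000277). UTP20, a very large processome scaffold protein, had 905, 1113 and 855 in control and 579, 672 and 679 in low glucose. Neither DDX10 nor UTP20 had overlapping groups, and UTP20 fell by 0.57 (SE 0.105, adjusted p = 0.000853).

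The other 6 called genes of this group were WDR43, UTP15 and HEATR1, which belong to the transcription-coupled UTP-A subcomplex, and UTP3, BYSL and UTP14A, processome or later assembly factors. Their log2 fold changes ran from -0.45 in WDR43 (adjusted p = 0.00108) through -0.43 in UTP3, -0.36 in UTP15, -0.33 in HEATR1 and -0.31 in BYSL to -0.24 in UTP14A (adjusted p = 0.0374). HEATR1 shares 2095 exon bases with LGALS8 on the other strand, and UTP15 shares 225 with ANKRA2, whose log2 fold change was 0.61. NOC4L, RRP9 and UTP4 were just outside the threshold, with log2 fold changes of -0.28, -0.26 and -0.20 and adjusted p of 0.0604, 0.0543 and 0.0569. LTV1, a late factor of the 40S precursor, had a log2 fold change of -0.15. The 2 genes nearest 0 were RRP12, a factor of small-subunit nuclear export, and NOB1. Whether late factors changed less than early ones was not tested. RRP12 had 1485, 1881 and 1325 normalised counts in control and 1329, 1533 and 1450 in low glucose, which overlapped (interval -0.34 to 0.13). NOB1, the endonuclease that makes the final cut of 18S ribosomal RNA, had 1310, 1389 and 1359 in control and 1349, 1422 and 1437 in low glucose. The interval of the NOB1 change was -0.11 to 0.21, and with quantile normalization NOB1 had a log2 fold change of 0.24 and an adjusted p of 0.0222. NOB1 shares 429 exon bases with NQO1-DT on the other strand, which has 43.5% of its level and a log2 fold change of 0.14.

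Of the 12 large-subunit assembly factors, 8 fell, none rose and 4 were not called, with a median of -0.30. NOC2L (chr1:944203-959309), which escorts early 60S precursors and also binds histones, had 4818, 5377 and 4741 normalised counts in control and 2973, 3058 and 2825 in low glucose. NOC2L shares 373 exon bases with SAMD11 on the other strand, which has 14.5% of its level and a log2 fold change of -0.71. The groups of NOC2L were far apart, and NOC2L fell by 0.75 (SE 0.0774, adjusted p = 6.38e-06). MRTO4 (chr1:19251805-19260128), which holds the place of the ribosomal stalk proteins in the 60S precursor, had 1574, 1631 and 1540 in control and 997, 898 and 933 in low glucose. It fell to the same extent, by 0.75 (SE 0.0761, adjusted p = 5.87e-06). PES1, a core member of the PES1-BOP1-WDR12 complex required for 28S ribosomal RNA maturation, had 2006, 2364 and 1985 in control and 1367, 1349 and 1362 in low glucose. Its low-glucose values differed by little, and PES1 fell by 0.63 (SE 0.0820, adjusted p = 4.65e-05).

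The falls of BRIX1, BOP1, RRS1, GNL3 and NOP16 were smaller, from 0.47 in BRIX1 (adjusted p = 0.00196) and 0.36 in BOP1 to 0.32 in RRS1, 0.27 in GNL3 and 0.27 in NOP16 (adjusted p = 0.0265). RRS1 is the called gene whose groups overlapped, with 548, 471 and 564 in control and 387, 403 and 477 in low glucose. NOP16 shares 344 exon bases with ARL10 and 177 with HIGD2A on the other strand, whose log2 fold changes were -0.59 and 0.25. NOC3L, the partner of NOC2L, had a log2 fold change of -0.18 (adjusted p = 0.0909) although its groups did not overlap. WDR12 had 849, 797 and 884 in control and 765, 802 and 786 in low glucose, with an interval of -0.27 to 0.07. Its exons share 169 bases with NBEAL1 on the other strand, which has 18.2% of its level and a log2 fold change of 0.76. NOP2, a ribosomal RNA cytosine methylase, had 19.1, 27.9 and 32.1 in control and 20.2, 30.6 and 28.8 in low glucose. A change in NOP2 was not detectable at its 17 to 38 reads, with an interval of -0.60 to 0.64. Its exons share 2550 bases on the same strand with a second annotated gene whose row is at 0 in every library. Whether reads that match both genes were left out of the counts was not tested. PPAN, a Brix-domain protein, had a log2 fold change of 0.21 (adjusted p = 0.233) and shares 1374 exon bases with the readthrough gene PPAN-P2RY11, which had at most 1 read. It also shares 48 exon bases on the same strand with P2RY11, which had 293 to 551 reads and a log2 fold change of 0.28.

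A ratio of 2 genes within a library compares members of 1 complex without any scaling between libraries. Such a ratio still carries the trend with transcript length described below, and the ratios were not recomputed with that trend removed. All 22 pairs within 4 complexes were computed, the complexes being picked after the values of their genes were known, and each ratio is written so that it is lower in low glucose. The 3 control and 3 low-glucose ratios did not overlap in 17 of the 22 pairs. That count stands against 58.8% of all pairs of genes whose mean was 100 or more, and the ratios are given as a description, without a test, because of how the complexes were picked. In the box H/ACA core, DKC1 to NHP2 was 2.87, 3.01 and 2.41 in control and 1.64, 1.62 and 1.80 in low glucose. The 3 pairs with DKC1 and GAR1 to NOP10 were the 4 of 6 H/ACA pairs without overlap. In the box C/D core, FBL to NOP56 was 0.648, 0.705 and 0.630 in control and 0.529, 0.531 and 0.464 in low glucose, and all 3 pairs of FBL, NOP58 and NOP56 were without overlap. In the PES1 complex, PES1 to WDR12 was 2.36, 2.97 and 2.25 in control and 1.79, 1.68 and 1.73 in low glucose. BOP1 lay between PES1 and WDR12, and again all 3 pairs were apart.

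The widest divergence was within RNA polymerase I. POLR1A to POLR1D was 3.88, 5.68 and 2.85 in control and 1.82, 1.94 and 1.99 in low glucose, a log2 difference of -1.05. Their canonical transcripts differ in length, with 12480 bases in POLR1A and 693 in POLR1D, and the part of length was not tested. POLR1C to POLR1D, the 2 subunits that form a heterodimer in both RNA polymerases I and III, was 1.68, 1.85 and 1.57 in control and 1.20, 1.15 and 1.32 in low glucose. The ratios among POLR1A, POLR1B and POLR1E overlapped between conditions in all 3 pairs. Further subunits, whose ratios were not computed, had mixed log2 fold changes. They were -0.63 for POLR1F, -0.59 for POLR2E, 0.22 for POLR2H and 0.26 for POLR1H, with POLR2H and POLR1H not called. Whether subunits shared between polymerases differ from those of RNA polymerase I alone was not tested. Of the 10 polymerase pairs, the 7 that contain POLR1C or POLR1D did not overlap.

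**Figure D4:**
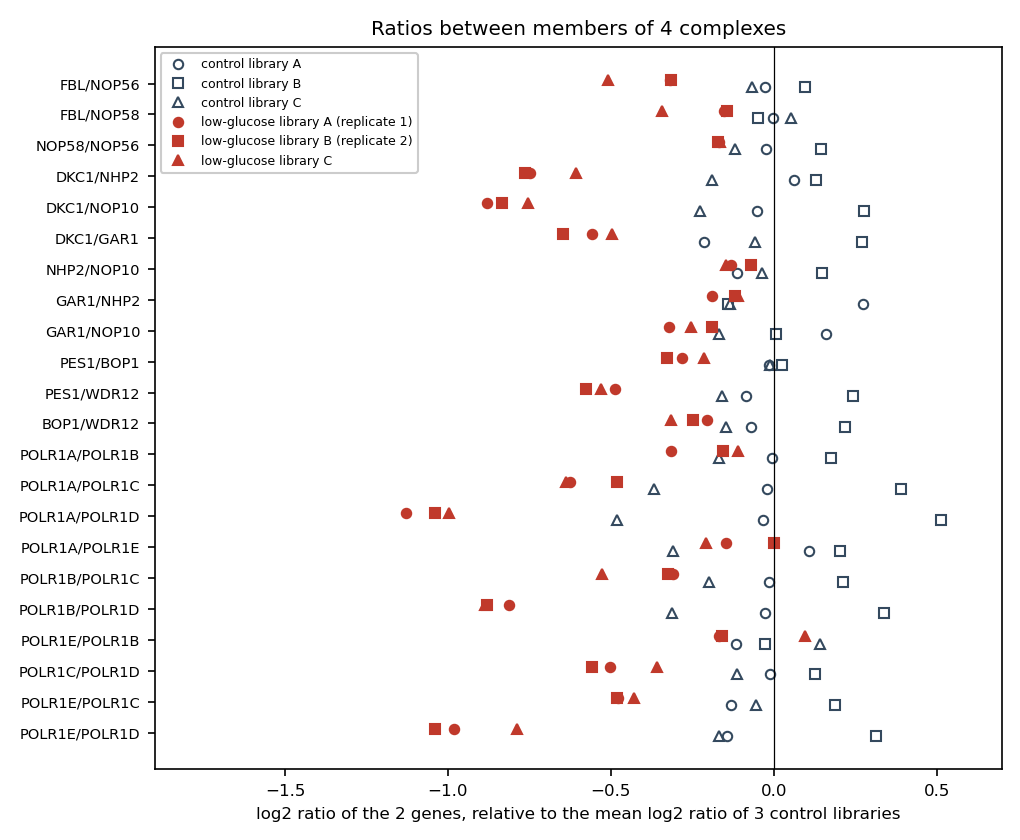
Log2 ratio of 2 genes within each library (x axis, relative to the mean log2 ratio of the 3 control libraries, which is 0) for all 22 pairs of genes in 4 complexes. Open symbols are control and filled symbols low-glucose libraries, and the pairs with POLR1D as the denominator and those of DKC1 with NHP2 and NOP10 stand furthest to the left, with POLR1A/POLR1D at -1.05 on average.

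Among themselves the control libraries differed more than the low-glucose libraries did. The highest control value of a gene was 1.22 times the lowest in the median of the 46 genes (range 1.01 to 1.68), against 1.07 in low glucose (range 1.01 to 1.52). Control B held the highest control value for 22 genes and the lowest for 19, and control C the highest for 18 and the lowest for 21, while control A was at either end for 6 genes each. Genes highest in control B had a median canonical transcript of 3361.5 bases and those lowest in it 1720 bases, with the reverse in control C (1655.5 and 3556 bases). POLR1A and UTP20 belong to the first kind and NOP10 and BRIX1 to the second. Across the 46 genes, longer transcripts had more negative log2 fold changes (Spearman's rho -0.38 over 46 genes in the same 6 libraries, and -0.12 over 10140 genes whose mean was 100 or more), a description across genes that are not independent. With the trend on length removed from each library, a step chosen after seeing the data, 33 of the 46 genes fell and 1 rose, while calls over the table also grew, to 3640 lower of 20994 genes tested.

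The wider pathway was counted over 151 further genes, all of which were tested. Of these, 80 fell and 5 rose, with a median of -0.29. The shares were 27 lower and 1 higher of 47 small-subunit genes, 30 and 1 of 52 large-subunit genes, 5 and 0 of 9 snoRNP genes (0 higher also at an unadjusted p under 0.05 in limma, edgeR and DESeq2), 5 and 1 of 14 RNA polymerase I genes, 7 and 1 of 14 exosome genes and 6 and 1 of 15 RNA polymerase III genes. Of the 10149 genes whose mean was 100 or more, 3049 fell and 1822 rose. Among these lists, the shares lower of the RNA polymerase I and III genes lay nearest to that background. Whether any list differed from the background was not tested. TCOF1 encodes treacle, the nucleolar scaffold that partners UBTF on ribosomal genes. It went from 6474 ± 1152 normalised counts (SD, n = 3) to 3250 ± 92.8, with a limma log2 fold change of -0.98 and an adjusted p of 8.07e-06. POLR1F, a further polymerase subunit, fell by 0.63, whereas TAF1D, a partner of TAF1C in selectivity factor 1, rose by 0.56 (adjusted p = 0.00117).

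In the snoRNP list, NUFIP1 and SHQ1, which assemble the box C/D and the box H/ACA particle respectively, fell by 0.73 and 0.72. Among small-subunit genes, NOL11, a UTP-A subunit, fell by 0.83 and BMS1, the processome GTPase, by 0.76, while RIOK3, a cytoplasmic kinase of 40S precursors, rose by 0.37 (adjusted p = 0.0127). Among large-subunit genes, URB2 fell by 0.88 and the helicase DDX24 by 0.78, and NOL12 rose by 0.92 from a low level of 18.3 ± 4.70 normalised counts (SD, n = 3) in control to 35.2 ± 6.53, with a limma adjusted p of 0.0249, a call that DESeq2 did not make. The exons of NOL12 share 788 bases on the same strand with a second annotated gene whose row is at 0, so its level may be understated. The exosome, the nuclease that trims ribosomal RNA ends, had MTREX, its helicase, lower by a log2 fold change of -0.56. EXOSC9 (-0.72) and EXOSC8 (0.40) share 254 exon bases with CCNA2 and 2138 with SUPT20H on the other strand, and CCNA2 itself had a log2 fold change of -1.24. Of RNA polymerase III, which makes 5S ribosomal RNA, POLR3K fell by 0.56 and POLR3B by 0.39. POLR3D rose by 0.22 (limma adjusted p = 0.0417), again a call that DESeq2 did not make.

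With 3 libraries a side, single libraries mattered for the smaller falls. Of the 29 genes that fell, 21 kept their call whichever library was left out, among them all those with the largest falls of their groups (NCL, DKC1, NOLC1, NOC2L, MRTO4, NOP14, POLR1A, UBTF) except NPM1. The other 8 were BYSL, GNL3, HEATR1, NOP16, NPM1, RRN3, RRS1 and UTP14A. All 8 lost their call without low glucose A and without low glucose B, 7 without low glucose C (all but RRS1), 7 without control A (all but HEATR1) and 3 without control C (GNL3, NOP16 and RRS1). None was lost without control B, where 33 of the 46 were called lower, and there too the table gave more calls, with 3741 lower of 21141 genes tested.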

How the data were processed

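RNA-seq of MiaPaCa-2 was read from 1 table with 60668 gene rows. The authors prepared strand-specific libraries, sequenced them in pairs, trimmed with Trim Galore, mapped to hg38 with STAR 2.7.0e and used DESeq2. RSEM is among the authors' listed software with no role stated. How reads were counted on genes, the strand setting and the annotation are not given in the sources used here. The deposited signal is in units of scaled reads, made by the authors from gene counts and 1 size factor per library. In each library 1 read has a fixed value, 100% of entries were whole numbers of reads (within 0.1 read), and the value of a read was the inverse of a median-of-ratios factor recomputed over 17906 genes, so whole reads were recovered. The precision is set by 3 libraries per group and by the reads per gene.

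The labels name 2 of the 6 columns, low-glucose replicates 1 and 2. The other 4 were placed in groups because column names form 2 runs of 3. A protocol field gives 2.5 mM glucose for all 6 samples, and groups follow the titles and design.

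Genes with a mean of at least 1 were tested on log2(value + 1) with limma 3.58.1 (R 4.3.3, variance trend, two-sided, Benjamini-Hochberg over 21101 genes). A pseudocount understates changes of low genes. Count tests on the recovered reads called 6554 genes (edgeR 4.0.16) and 5486 (DESeq2 1.42.0), against 6528. Other scalings, filters, pseudocounts and variance models and the omission of each library were tried, and removal of the length trend was added after seeing the data. Tests were checked on simulated data with 200 changed genes and the same dispersion for every gene. There limma recovered 90 genes changed by 0.5 and 100 changed by 1 on the log2 scale, with 9 false calls. The simulation held no length trend and no wider spread in controls, so it does not cover those features of the data. GENCODE v44 gave names, for 99.4% of identifiers, positions (hg38), overlaps and canonical lengths. Values in every library are given for the up to 3 called genes per group with the largest change, called genes against the majority and the 2 nearest 0, and others are named by value. Of the wider lists, the 2 largest falls and rises were named. The members and lists were chosen with earlier results of these data known.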

Additional observations from a re-analysis of the deposited data

How the results depend on the processing

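The counts were recomputed under 16 alternatives, of which 10 used all libraries and 6 left out 1. Of the 29 genes that fell, 14 kept their call in all 16 (DDX10, DDX21, DKC1, FBL, MRTO4, NCL, NOC2L, NOLC1, NOP14, PES1, POLR1E, UBTF, UTP20, WDR43) and 15 lost it in at least 1. No called gene changed direction, and 7 genes that were not called passed the threshold in at least 1 alternative. Without a variance trend in limma, 4090 genes of the table were called, 15 of the 46 genes, all 15 lower and 0 higher (POLR1D, the 1 gene higher at an unadjusted p under 0.05, had an adjusted p of 0.0544), and 46 of the wider genes. With quantile normalization 3 of the 46 were higher (POLR1D, TAF1C and NOB1). Leaving out 1 library gave 4319 to 7251 genes of the table (the lowest without low glucose A), 22 to 34 of the 46 called, 21 to 33 lower, 1 to 2 higher (2 without control C) and 60 to 98 of the wider genes. Signs that reversed were all in genes not called, and the cause was not tested. With equal library totals, the log2 fold change was 0.034 for NHP2 and 0.032 for POLR1C. With quantile normalization it was 0.17 for NHP2, -0.25 for NOP2, 0.062 for NOP56, 0.10 for POLR1C, 0.087 for RRP12 and 0.025 for WDR12. With the length trend removed, NOP10 was at -0.021. On leaving out 1 library, values ran from -0.11 to 0.047 for NHP2, from -0.073 to 0.18 for NOP10, from -0.19 to 0.20 for NOP2 and from -0.22 to 0.033 for RRP12. No paired analysis was possible because a replicate number is known for only 2 of the 6 columns. Depth limits NOP2.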
